A study of Mus musculus with 16 samples.

Results

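Siglecs are cell surface lectins that bind sialic acid, the sugar that caps many glycans of mammalian cells. The genes described here are 5 mouse Siglec receptors (Siglech, Cd33, Siglece, Siglec1 and Cd22) and Ptpn6, which encodes SHP-1, a phosphatase that inhibitory receptors of this family recruit. These 6 genes were chosen by symbol from the 13982 genes of the deposited expression table, with earlier results of these data in view. Which measured values chose each gene is not recorded. All 6 are in the table and all 6 were among the 10846 genes tested.

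RNA was sequenced from cells labelled as microglia in 16 libraries, 4 for each of 4 groups of C57BL/6 mice. Sham mice carried no occlusion. In MCAO mice the middle cerebral artery was occluded, which models ischemic stroke. The groups named MCAO+Ctrl-exos and MCAO+AS-exos had the same occlusion and were also given 150 µg of exosomes by the tail vein, repeated every 3 days from surgery onward. Those exosomes came from the plasma of ApoE knockout mice kept on a normal or a western diet, and 12 weeks of the western diet served as the model of atherosclerosis. The labels do not state which diet belongs to which exosome code, the age of the mice or the time from surgery to sorting. They also do not state whether a library is 1 mouse, so the p-values measure the spread between libraries alone. Cells were sorted from cortex (infarct cortex, per the labels) after staining for CD45 and CD11b, which blood-derived myeloid cells carry as well as microglia. Values were read as FPKM (fragments per length of transcript, relative to all fragments sequenced), so levels of different genes can be compared. The labels do not state the unit.

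Microglia markers were high in Sham libraries, and after occlusion markers of other myeloid cells were present beside them. The 9 microglia markers summed to 12018 to 14081 FPKM in Sham libraries and to 305 to 852 FPKM in MCAO libraries, 392 to 602 FPKM with Ctrl-exos and 427 to 690 FPKM with AS-exos. The 10 monocyte markers summed to 31.2 to 159 FPKM in Sham and to 3003 to 6936 FPKM over the 12 occlusion libraries. Border macrophage markers (8 genes) went from 2.78 to 60.2 FPKM in Sham to 1754 to 5536 FPKM in the occlusion libraries, and neutrophil markers (7 of 10 listed genes) from 76.7 to 144 FPKM to 1619 to 9685 FPKM. The summed levels of these 4 lists overlapped between the 3 occlusion groups. In sorted bulk RNA of this kind, fewer cells of a type and less RNA per cell cannot be told apart, and the part of this change in cell types in each result below was not tested. MCAO+AS-exos replicate 4 stood apart from its group, with correlations of 0.905 to 0.921 to replicates 1 to 3, which correlated at 0.979 to 0.985 with each other. The differences of the 6 genes from MCAO+Ctrl-exos, and the counts of list genes, are therefore also given without it.

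Most Siglecs of myeloid cells carry an ITIM, a tyrosine motif in the cytoplasmic tail that recruits the phosphatases SHP-1 and SHP-2 and dampens activating signals. A smaller set has no such motif and pairs instead with the adaptor DAP12, encoded by Tyrobp, whose ITAM motif recruits the kinase Syk. Siglec-H is the DAP12-paired receptor of mouse microglia and plasmacytoid dendritic cells and is in common use as a marker of microglia. CD33 is the family member tied to Alzheimer's disease risk in human microglia, and mouse CD33 differs from the human protein in its signalling parts. Siglec-E is the main ITIM Siglec of mouse myeloid cells, including neutrophils and macrophages.

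The promoters of Siglech, Cd33 and Siglece are printed because the results turn on these genes, and that of Siglecf because its levels ran closest to those of Cd33 and Siglece among the other Siglec genes. The sequences run from 250 bases before to 50 bases after each gene's start and are from RefSeq on the GRCm38.p6 build, another build than the GRCm39.p6 of the expression values. Entries matched 5 of the 6 genes, all but Siglec1. Capitals in Siglech and Siglece mark TTCCTC, the reverse complement of GAGGAA, a core bound by the myeloid factor PU.1. Capitals in Cd33 and Siglecf mark the stretches of at least 10 bases that these promoters share, 50 bases in each.
Siglech, chr7:55767934-55768233, plus strand: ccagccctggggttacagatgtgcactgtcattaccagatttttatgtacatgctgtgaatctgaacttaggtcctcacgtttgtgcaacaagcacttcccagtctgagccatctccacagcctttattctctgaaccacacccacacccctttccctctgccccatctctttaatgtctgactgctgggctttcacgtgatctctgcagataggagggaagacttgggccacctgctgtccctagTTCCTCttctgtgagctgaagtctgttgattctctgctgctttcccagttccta
Siglece, chr7:43660112-43660411, minus strand: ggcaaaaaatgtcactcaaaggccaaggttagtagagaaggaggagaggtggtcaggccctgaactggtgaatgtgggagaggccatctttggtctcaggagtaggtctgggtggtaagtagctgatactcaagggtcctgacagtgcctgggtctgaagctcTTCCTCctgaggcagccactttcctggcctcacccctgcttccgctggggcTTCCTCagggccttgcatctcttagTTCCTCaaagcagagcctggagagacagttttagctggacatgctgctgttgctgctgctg
Cd33, chr7:43533122-43533421, minus strand: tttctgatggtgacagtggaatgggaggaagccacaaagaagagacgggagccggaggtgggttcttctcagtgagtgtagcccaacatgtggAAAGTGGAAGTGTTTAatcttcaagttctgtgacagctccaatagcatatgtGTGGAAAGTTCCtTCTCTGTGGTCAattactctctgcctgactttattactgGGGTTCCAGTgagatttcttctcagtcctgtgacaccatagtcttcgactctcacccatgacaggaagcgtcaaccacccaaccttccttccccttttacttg
Siglecf, chr7:43351091-43351390, plus strand: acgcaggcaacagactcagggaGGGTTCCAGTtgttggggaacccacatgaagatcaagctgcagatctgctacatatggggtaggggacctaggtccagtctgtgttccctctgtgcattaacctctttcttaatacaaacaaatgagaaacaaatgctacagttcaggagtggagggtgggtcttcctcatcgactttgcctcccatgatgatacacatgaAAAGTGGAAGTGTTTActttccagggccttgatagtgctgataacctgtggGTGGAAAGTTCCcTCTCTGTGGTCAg

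The Cd33 and Siglecf promoters shared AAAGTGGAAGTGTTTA, a stretch of 16 bases that 2 of 32851 RefSeq promoters held (0.00609%). They also shared GTGGAAAGTTCC, found in 2 promoters, TCTCTGTGGTCA, found in 9 (0.0274%), and GGGTTCCAGT, found in 27 (0.0822%). The first 3 stretches stood in the same order in both promoters, and the last lay before them in Siglecf and after them in Cd33. These 3 began at bases 94, 146 and 159 of the Cd33 sequence, all before the gene's start. In Siglecf they began at bases 224, 275 and 288, and those at 275 and 288 lay after the gene's start. Of the 15 pairs among the 5 matched promoters and Siglecf, the other 14 pairs shared at most 7 to 10 bases in a row. GAGGAA on either strand occurred in 28.3% of all promoters, with 1 match in Siglech, 1 in Cd33, 1 in Siglecf, 3 in Siglece and 0 in Cd22 and Ptpn6. TGTGGT, the core bound by RUNX factors, occurred on either strand in 16.8% of promoters, with 1 match each in Siglech, Cd33 and Siglecf and 0 in Siglece, Cd22 and Ptpn6. The TGTGGT match in Cd33 and in Siglecf is inside the shared stretch TCTCTGTGGTCA. These matches describe letters in a window and carry no statement on binding.

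In Sham libraries the family was led by Siglech, and after occlusion Siglech was the lowest of the 6 genes. On the FPKM scale the Sham means ran from 2125 for Siglech through 116 for Ptpn6, 85.1 for Cd33, 32.6 for Siglece and 1.17 for Cd22 to 0.0025 for Siglec1. In MCAO libraries they ran from 105 for Ptpn6 through 29.8 for Cd33, 8.125 for Siglece, 4.515 for Cd22 and 3.56 for Siglec1 to 2.075 for Siglech. How fragments matching several related Siglec genes were assigned is not stated, so levels of close relatives such as Cd33, Siglece and Siglecf carry that uncertainty.

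**Figure D1:**
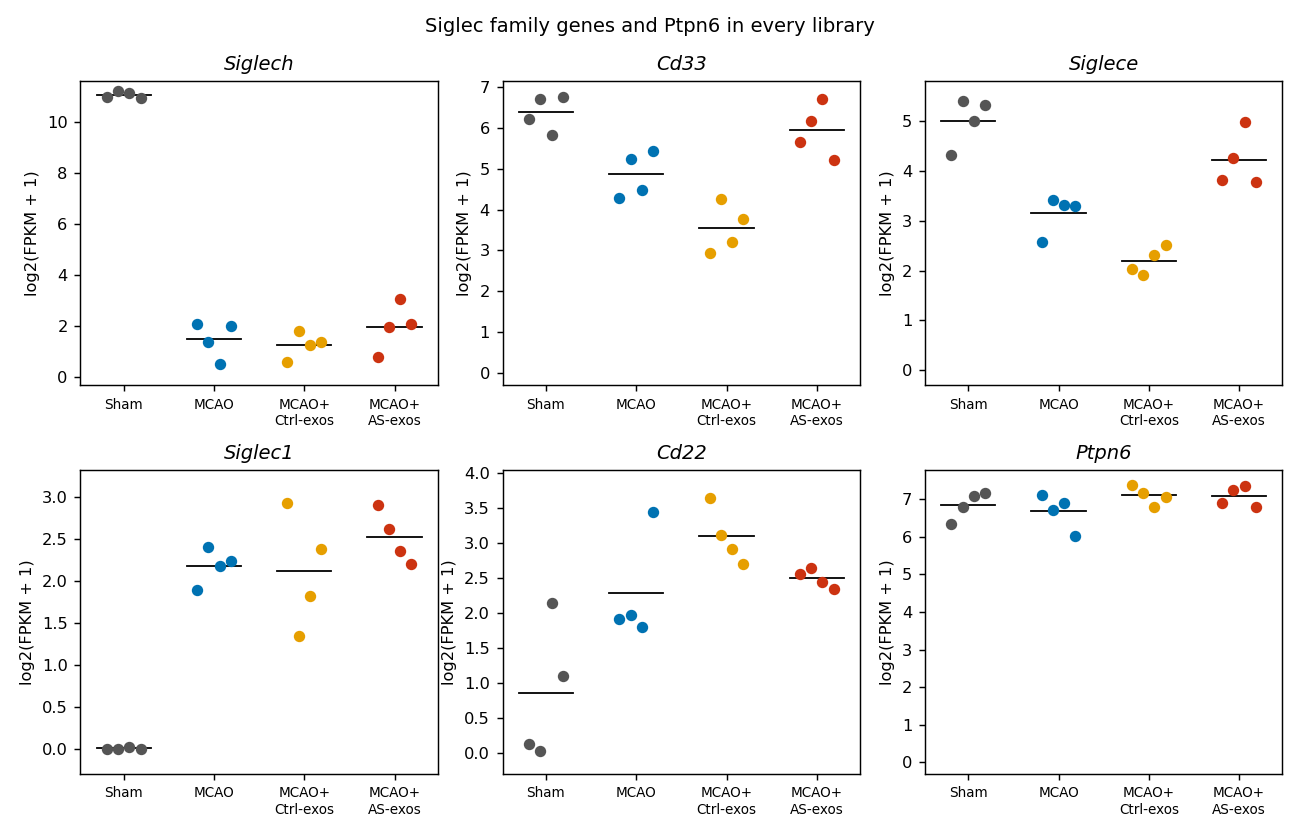
Level of each of the 6 genes in every library, as log2(FPKM + 1) on the vertical axis, by group on the horizontal axis; points are libraries and lines are group means, with 4 libraries a group. Siglech is between 1970 and 2334 FPKM in the 4 Sham libraries and at most 7.38 FPKM in the 12 others, Cd33 and Siglece are lowest with Ctrl-exos, Siglec1 is at or near 0 in Sham, and Ptpn6 overlaps in all 4 groups.

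Siglech was among the most abundant transcripts of Sham libraries and close to absent after occlusion. Its values in Sham libraries were 1977.63, 2334.35, 2216.51 and 1969.67 FPKM, which placed it 33rd to 39th among all genes of each library. The MCAO libraries had 3.27, 1.61, 0.44 and 2.98 FPKM. With Ctrl-exos the values were 0.51, 2.5, 1.39 and 1.62 FPKM, and with AS-exos 0.74, 2.94, 7.38 and 3.22 FPKM. The lowest Sham library was 267-fold above the highest of the 12 occlusion libraries, while the 3 occlusion groups overlapped one another throughout. The MCAO mean was 1024-fold below the Sham mean. On the log2(FPKM + 1) scale the difference was -9.55 ± 0.43 (SE), the lowest of the 10846 genes tested. That comparison was known when the gene was chosen, so it is given with no p.

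Siglech kept less of its Sham level than any of the 9 microglia markers. The MCAO mean of Siglech was 0.0977% of its Sham mean. Of these markers, the transcription factor gene Sall1 came closest with 0.288%, followed by the receptor genes Gpr34 with 0.502% and P2ry12 with 1.13%. Sparc kept 1.74%, P2ry13 3.36%, Olfml3 4.46%, the fractalkine receptor gene Cx3cr1 5.14%, Tmem119 6.26% and Fcrls 19.6%. Siglech was thus at the lower end of a wide range, given as a description of group means. Plasmacytoid dendritic cells also carry Siglec-H. Their markers (7 of 9 listed genes in the table) summed to 401 to 533 FPKM in Sham libraries and 303 to 700 FPKM in the occlusion libraries. Most of these sums came from Lair1, with means of 321 FPKM in Sham and 66.1 FPKM in MCAO libraries, and Bst2, with 118 and 396 FPKM. Lair1 is also in the list of other inhibitory receptors below. Cox6a2 averaged 4.945 FPKM in Sham and 7.49 FPKM in MCAO libraries, and Irf7 11.7 and 23.0 FPKM. Group means of Ccr9, Spib and Pacsin1 were at most 2.065 FPKM, so the sum is no measure of these cells. Of the 5 tested, Bst2 rose in MCAO against Sham, Lair1 fell and 3 did not pass. The part of these cells in the Siglech values was not tested.

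**Figure D2:**
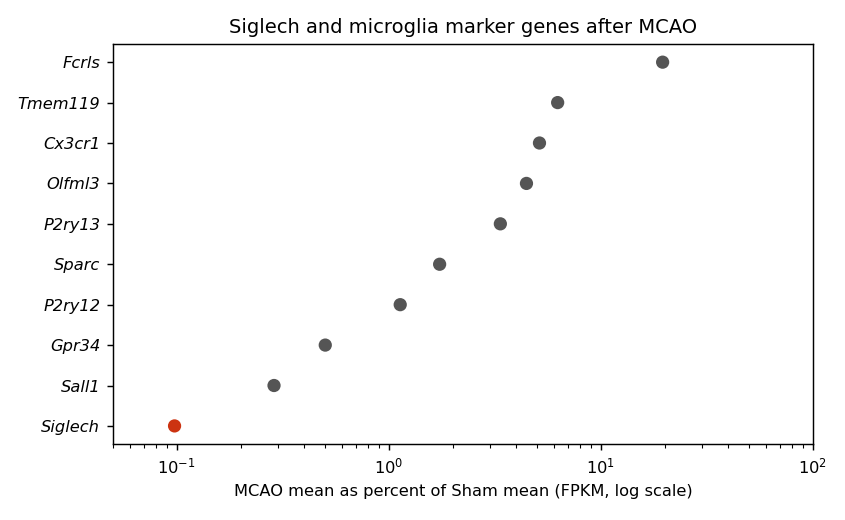
Mean FPKM in the 4 MCAO libraries as a percent of the mean in the 4 Sham libraries (horizontal axis, log scale) for Siglech, in red, and 9 microglia marker genes, in gray. Siglech is lowest at 0.0977%, and Fcrls is highest at 19.6%.

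Exosomes did not bring Siglech back to a level near that of Sham. The log2 difference was -0.24 ± 0.43 between MCAO+Ctrl-exos and MCAO (adjusted p = 0.869, 95% interval -1.14 to 0.66). Between MCAO+AS-exos and MCAO+Ctrl-exos it was 0.72 ± 0.43 (adjusted p = 0.360, interval -0.18 to 1.62), and 0.69 without AS-exos replicate 4 (adjusted p = 0.365). The highest occlusion library, AS-exos replicate 3, held 7.38 FPKM. Tyrobp, which encodes the DAP12 adaptor of Siglec-H, stayed among the strongly expressed genes. It averaged 9835 ± 1965 FPKM (SD, n = 4) in Sham and 5141 ± 453 FPKM in MCAO libraries, a log2 difference of -0.92 ± 0.23 (adjusted p = 0.00317, limma).

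Cd33 was highest in Sham, lower after occlusion, lowest with Ctrl-exos and near the Sham level with AS-exos. Sham libraries had 74.1, 104.1, 55.66 and 106.62 FPKM and MCAO libraries 18.32, 36.82, 21.36 and 42.61 FPKM. With Ctrl-exos the values were 6.65, 18.3, 8.2 and 12.54 FPKM, and with AS-exos 49.25, 70.56, 104.23 and 36.34 FPKM. Sham did not overlap MCAO, and AS-exos did not overlap Ctrl-exos. AS-exos overlapped Sham through replicates 2 and 3 and overlapped MCAO through replicate 4, and the lowest MCAO library was only just above the highest Ctrl-exos library. In order, the group means were 85.1 ± 24.6 in Sham, 65.1 ± 29.7 with AS-exos, 29.8 ± 11.8 in MCAO and 11.4 ± 5.22 FPKM with Ctrl-exos (SD, n = 4).

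Siglece followed the same order at a lower level. Sham libraries had 18.9, 41.55, 31.16 and 38.95 FPKM and MCAO libraries 4.94, 9.74, 8.97 and 8.85 FPKM. With Ctrl-exos the values were 3.1, 2.76, 3.99 and 4.73 FPKM, and with AS-exos 13.17, 18.27, 30.58 and 12.83 FPKM. The 4 groups were separate except for AS-exos and Sham, which overlapped. Means were 32.6 ± 10.2 in Sham, 18.7 ± 8.29 with AS-exos, 8.125 ± 2.16 in MCAO and 3.645 ± 0.890 FPKM with Ctrl-exos (SD, n = 4).

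Siglecf, the receptor that marks eosinophils and alveolar macrophages, ran in the same order at lower levels. Sham libraries had 5.8, 11.22, 7 and 5.37 FPKM and MCAO libraries 0.91, 1.99, 0.89 and 0.28 FPKM. With Ctrl-exos all 4 libraries were at 0.02 to 0.13 FPKM. With AS-exos replicates 1 to 3 had 4.76, 4.61 and 8.45 FPKM, and replicate 4, the library that stood apart, had 0.44 FPKM.

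Between the exosome groups, Cd33 and Siglece rose and the other members did not pass the test. Cd33 was 5.70-fold higher by group means with AS-exos than with Ctrl-exos, a log2 difference of 2.40 ± 0.38 (95% interval 1.61 to 3.19, adjusted p = 0.0221 by limma over all tested genes). Siglece was 5.13-fold higher, a log2 difference of 2.02 ± 0.35 (interval 1.29 to 2.75, adjusted p = 0.0236). They were the 2nd and 6th gene by p of the 10846 tested. Of all tested genes 0.286% passed in either direction, 0.157% higher and 0.129% lower, beside 2 of the 6 members, both higher. Groups did not overlap for 10.2% of tested genes and for 3 members, Cd33, Siglece and Cd22. The members were chosen with earlier results known, so these p-values are no independent support.

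The size of both differences varied little when single libraries were left out, and the calls did not always survive. For Cd33 the log2 difference lay between 2.14 and 2.64, with adjusted p of 0.0929 without AS-exos replicate 2 and 0.130 without replicate 3. For Siglece it lay between 1.76 and 2.16, with adjusted p of 0.0826 without Ctrl-exos replicate 2 and of 0.0692, 0.102 and 0.137 without AS-exos replicates 1, 2 and 3. Without AS-exos replicate 4 the differences were 2.63 for Cd33 (adjusted p = 0.000635) and 2.16 for Siglece (adjusted p = 0.00148), and the count of genes called in the comparison was 1297 in place of 31. Of the 9 microglia markers 1 rose, the receptor gene P2ry13, from 11.5 ± 9.17 to 37.4 ± 11.7 FPKM (log2 difference 1.81 ± 0.38, adjusted p = 0.0451), and 8 did not pass, with a median of 0.17 and values below 0 for Cx3cr1, Fcrls and Sparc. Without AS-exos replicate 4, 2 of the 9 passed, P2ry12 and P2ry13, both higher. The neutrophil markers summed to 3359 to 7116 FPKM with AS-exos and 1716 to 3445 FPKM with Ctrl-exos. Most of these sums came from S100a8, with means of 4269 and 1683 FPKM, and S100a9, with 1336 and 667 FPKM. Means of Retnlg were 68.6 and 7.98 FPKM (0.96 to 177.83 FPKM over the AS-exos libraries), of Cxcr2 21.3 and 9.17 FPKM and of Mmp9 16.8 and 7.74 FPKM. Csf3r averaged 65.4 and 60.4 FPKM and Ly6g 1.15 and 2.31 FPKM. With all libraries 0 of the 6 tested neutrophil markers passed, with a median log2 difference of 1.08. The part of these cells in the Cd33 and Siglece values was not tested.

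Against MCAO without exosomes, neither exosome group gave a member that passed. With Ctrl-exos, Cd33 differed by -1.32 ± 0.38 on the log2 scale (adjusted p = 0.198, interval -2.11 to -0.53) and Siglece by -0.96 ± 0.35 (adjusted p = 0.326, interval -1.69 to -0.23). Only 0.0738% of tested genes passed there, and groups did not overlap for 5.98% of tested genes and for 2 members, Cd33 and Siglece. With AS-exos, Cd33 differed from MCAO by 1.08 ± 0.38 (adjusted p = 0.0855, interval 0.29 to 1.87) and Siglece by 1.063 ± 0.35 (adjusted p = 0.0704, interval 0.33 to 1.79). In that comparison 6.14% of tested genes passed, 1.06% higher and 5.08% lower, and groups did not overlap for 14.4% of tested genes and for 1 member, Siglece. The other members differed between AS-exos and MCAO by 0.21 (Cd22) to 0.48 (Siglech), with adjusted p of 0.360 to 0.822. Without AS-exos replicate 4 both Cd33 and Siglece passed, Cd33 with 1.32 (adjusted p = 0.0257) and Siglece with 1.205 (adjusted p = 0.0287). The 4 comparisons share groups of libraries, so they are not independent of one another.

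**Figure D3:**
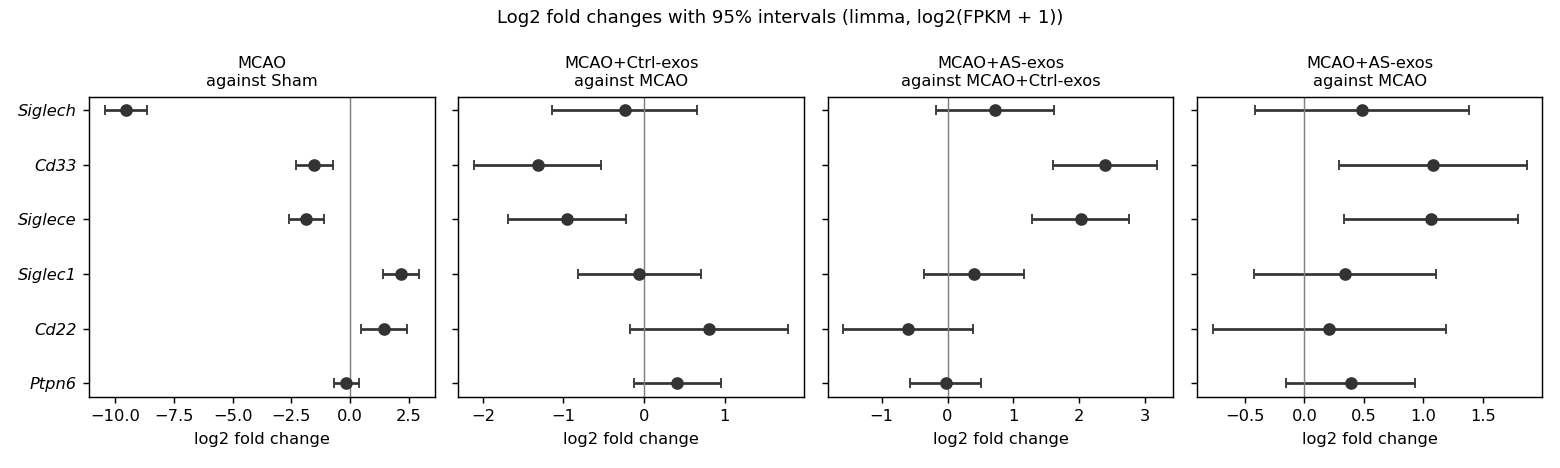
Log2 fold changes of the 6 genes (horizontal axes, which differ in range) in 4 comparisons; points are estimates of limma on log2(FPKM + 1) and bars are 95% intervals, with 4 libraries a group. Siglech has the lowest value in MCAO against Sham, and in the comparison of AS-exos with Ctrl-exos only the intervals of Cd33 and Siglece exclude 0.

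Cd33 and Siglece also stayed close to each other within libraries. The ratio of Cd33 to Siglece in FPKM was 2.74 ± 0.887 in Sham, 3.67 ± 0.997 in MCAO, 3.37 ± 2.19 with Ctrl-exos and 3.46 ± 0.461 with AS-exos (SD, n = 4). The wide spread with Ctrl-exos came from replicate 2, with a ratio of 6.63 beside 2.06 to 2.65 in the other libraries. Likeness between genes was measured as the root mean square difference of log2 values, each centred on its mean over the 16 libraries. Predicted gene models were left out of this ranking. By that measure the gene nearest to Cd33 among the other tested genes was Siglece, at 0.447, and the gene nearest to Siglece was Cd33. The next nearest to Cd33 were Siglecf at 0.618 and Icosl, which encodes a costimulatory ligand of T cells, at 0.646. Siglecf was at 0.508 from Siglece. A gene with no change would have differed from Cd33 by 1.201 and from Siglece by 1.13. The 16 points share the occlusion contrast, so this is a description with no test.

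**Figure D4:**
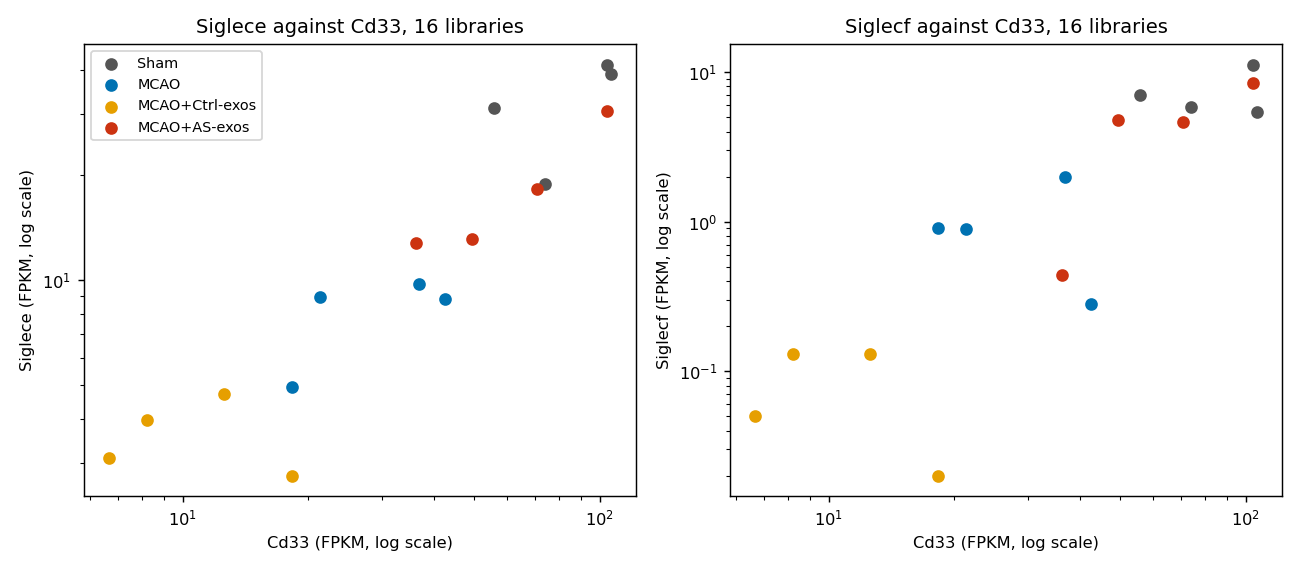
Siglece (left) and Siglecf (right) against Cd33 in the 16 libraries, all axes in FPKM on a log scale and points coloured by group. Ctrl-exos libraries lie at the lower left in both panels and Sham libraries at the upper right, and AS-exos replicate 4 is the red point at 0.44 FPKM of Siglecf.

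Cd33, Siglece and Siglecf lie in 1 stretch of chromosome 7, where with all libraries only Cd33 and Siglece passed between the exosome groups. Between Siglecf and Siglece, both included, the RefSeq annotation orders 17 protein-coding genes, of which 12 are in the table and 9 were tested. Of these, 5 are not Siglec genes. In MCAO+AS-exos against MCAO+Ctrl-exos their log2 differences were -0.38 for Etfb, 0.69 for Vsig10l, 1.13 for Gm2511, 0.10 for Zfp658 and 0.13 for Zfp719, and none passed. Without AS-exos replicate 4 none of these 5 passed either. Of all tested genes 0.286% passed with all libraries and 12% without that replicate, so nothing is read from this count of 5 genes. All but Etfb had means of 0.4125 to 3.39 FPKM in the exosome groups, where the log2(FPKM + 1) scale understates changes. From Sham through MCAO to Ctrl-exos the means of Zfp658 (20.2, 2.22 and 0.985 FPKM), Zfp719 (9.64, 3.305 and 1.24 FPKM) and Vsig10l fell. Those of Etfb and Gm2511 rose. Siglecf itself differed between the exosome groups by 2.08 ± 0.47, with an adjusted p of 0.0502, and by 2.64 ± 0.38 without AS-exos replicate 4 (adjusted p = 0.000577). Siglecg, next to it and best known from B1 cells, differed by 1.11 ± 0.66 (adjusted p = 0.355). Whether a neighbour differed from Cd33 or Siglece was not tested.

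Siglec1 was all but absent from Sham libraries and present in every occlusion library. It encodes sialoadhesin (CD169), a large adhesion receptor of macrophages with no ITIM, which interferon induces on monocytes. Sham libraries were listed at 0, 0, 0.01 and 0 FPKM. MCAO libraries had 2.7, 4.3, 3.52 and 3.71 FPKM, Ctrl-exos libraries 6.6, 1.53, 2.54 and 4.21 FPKM and AS-exos libraries 6.51, 5.13, 4.12 and 3.61 FPKM. The 3 occlusion groups overlapped, at means of 3.56 ± 0.661, 3.72 ± 2.22 and 4.84 ± 1.28 FPKM (SD, n = 4). On the log2(FPKM + 1) scale MCAO was higher than Sham by 2.17 ± 0.37, and no fold is given against libraries listed at 0. AS-exos differed from Ctrl-exos by 0.40 ± 0.37 (adjusted p = 0.568, interval -0.36 to 1.17), and by 0.51 without AS-exos replicate 4 (adjusted p = 0.416). Ctrl-exos differed from MCAO by -0.06 ± 0.37 (adjusted p = 0.970, interval -0.82 to 0.70), or by 0.12 with quantile normalization.

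The marker lists of macrophages and of the interferon response bear on where Siglec1 is usually found. Of 8 border macrophage markers 7 rose in MCAO against Sham, and all 10 monocyte markers rose. The interferon response genes (10 of 11 listed) split, with 4 of 10 that rose, Isg15, Oasl2, Ifi204 and Rsad2, and 6 that did not pass, beside 24.5% higher of all tested genes. Their summed level overlapped between Sham, at 80.7 to 548 FPKM, and MCAO, at 151 to 385 FPKM. The part of any of these in the Siglec1 values was not tested. The genes nearest to Siglec1 over the 16 libraries were Idh1 at 0.320, Rab7 at 0.343 and Lipa, which encodes lysosomal acid lipase, at 0.348, against 1.05 for a gene with no change.

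Cd22 was low in all groups, with a higher mean after occlusion. It encodes an ITIM receptor of B cells that mouse microglia also express with age. Sham libraries had 0.09, 0.02, 3.43 and 1.15 FPKM, and MCAO libraries had 2.77, 2.93, 2.49 and 9.87 FPKM. With Ctrl-exos the values were 11.53, 7.65, 6.57 and 5.47 FPKM, and with AS-exos 4.89, 5.22, 4.43 and 4.07 FPKM. Sham and MCAO overlapped through Sham replicate 3, and all AS-exos libraries were below all Ctrl-exos libraries. The group means were 7.805 ± 2.64 with Ctrl-exos, 4.65 ± 0.506 with AS-exos, 4.515 ± 3.57 in MCAO and 1.17 ± 1.59 FPKM in Sham (SD, n = 4). MCAO differed from Sham by 1.43 ± 0.47 on the log2 scale. Without Sham replicate 1, Sham replicate 2 or MCAO replicate 4 the difference was 1.19, 1.16 or 1.05 and no longer past the threshold of the test, as with quantile normalization (0.92) and with the 8 libraries compared alone.

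Among the occlusion groups no difference of Cd22 passed. AS-exos differed from Ctrl-exos by -0.60 ± 0.47 (adjusted p = 0.499, interval -1.58 to 0.38), or by -0.55 without AS-exos replicate 4 (adjusted p = 0.523), and Ctrl-exos from MCAO by 0.81 ± 0.47 (adjusted p = 0.546, interval -0.17 to 1.79). Of 9 B cell markers 2 are in the table. Cd79b, part of the B cell receptor, averaged 32.3 ± 17.6 FPKM in Sham and 10.995 ± 7.38 FPKM in MCAO libraries, a log2 difference of -1.78 ± 0.68 (adjusted p = 0.0431). The summed level of both markers was 2.43 to 4.45 FPKM with Ctrl-exos and 5.6 to 17.2 FPKM with AS-exos. The part of B cells in the Cd22 values was not tested. The kinase gene Blk was at 0 in all libraries of Sham, Ctrl-exos and AS-exos and at most 0.11 FPKM in MCAO. The genes nearest to Cd22 were Mrpl2 at 0.387, Svip at 0.514 and the cell cycle factor gene E2f1 at 0.519, against 1.004 for a gene with no change.

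Ptpn6 levels overlapped in all groups. Sham libraries had 80.32, 108.8, 134.32 and 141.32 FPKM and MCAO libraries 137.36, 103.27, 117.24 and 63.55 FPKM. With Ctrl-exos the values were 165.21, 142.5, 109.04 and 131.18 FPKM, and with AS-exos 118.31, 150.77, 160.3 and 109.61 FPKM. The group means were 116 ± 27.7, 105 ± 31.2, 137 ± 23.4 and 135 ± 24.6 FPKM in that order (SD, n = 4). The log2 difference of MCAO from Sham was -0.16 ± 0.26. AS-exos differed from Ctrl-exos by -0.03 ± 0.26 (adjusted p = 0.972, interval -0.57 to 0.52), by 0.0556 with totals scaled to be equal and by 0.0668 without AS-exos replicate 4 (adjusted p = 0.904), and Ctrl-exos from MCAO by 0.41 ± 0.26 (adjusted p = 0.573, interval -0.13 to 0.96), so the intervals leave room for differences of up to about 1 on the log2 scale. The genes nearest to Ptpn6, Tsn at 0.294, Ddx39b at 0.298 and Rnasek at 0.299, were little nearer than a gene with no change, at 0.348.

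As a count in MCAO against Sham, 5 of the 6 genes were past the threshold, Siglec1 and Cd22 higher and Siglech, Cd33 and Siglece lower, and groups did not overlap for 4, all but Cd22 and Ptpn6. Cd33 was no longer past it with trends in length and GC removed (-1.03), nor Cd22 under the alternatives given above. Of all tested genes 39.2% were past it, 24.5% higher and 14.8% lower, and groups did not overlap for 33.8%. The log2 differences were -1.52 ± 0.38 for Cd33 and -1.86 ± 0.35 for Siglece. The comparison was known when the genes were chosen, and nothing is read from the count. The median log2 difference of all tested genes was 0.25 in MCAO against Sham and -0.08 in MCAO+AS-exos against MCAO+Ctrl-exos.

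The genes that make, attach and remove sialic acid, and the signalling partners of Siglecs, changed in both directions after occlusion. Of 74 genes in 8 lists 65 are in the table and 62 were tested. In MCAO against Sham 20 rose (32.3%), 11 fell (17.7%) and 31 did not pass, beside 24.5% higher and 14.8% lower of all tested genes. The other Siglec genes (3 tested, median log2 difference -0.998) had 1 that fell, Siglecf by 2.06 ± 0.47 (adjusted p = 0.00178, limma). Mag, the Siglec of myelin-forming cells, did not pass (-0.998 ± 0.55, adjusted p = 0.159), nor did Siglecg (0.81 ± 0.66, adjusted p = 0.345). Siglec15 was not analysed here.

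Of the enzymes of sialic acid, the sialyltransferases held the widest changes. Of 12 tested 3 rose and 4 fell, with a median of -0.17. St3gal6, which makes sialylated selectin ligands, went from 206 ± 46.5 to 1.2975 ± 1.67 FPKM, a log2 difference of -6.72 ± 0.52 (adjusted p = 3.44e-09). St3gal1, which caps O-glycans, rose by 2.57 ± 0.41 (adjusted p = 5.34e-05) and St3gal4 by 2.05 ± 0.32 (adjusted p = 4.92e-05). Sialic acid synthesis had 1 of 6 genes that rose, the synthase gene Nans by 0.90 ± 0.34 (adjusted p = 0.0397), and a median of 0.38. The list of sialidases, sialate esterases and related genes had 5 tested, Neu1, Neu3, Ctsa, Siae and Casd1. Of these 1 rose, the lysosomal sialidase gene Neu1 by 1.33 ± 0.35 (adjusted p = 0.00512), and the median was 0.36.

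Among proteins that carry ligands of Siglecs, 3 of 5 rose and 1 fell, with a median of 1.15. Cd24a, whose protein binds Siglec-G in mice, rose from 0.0725 ± 0.0532 to 113 ± 5.60 FPKM (log2 difference 6.73 ± 0.27, adjusted p = 1.15e-13). Cd52 rose by 1.77 ± 0.24 (adjusted p = 8.64e-06). Selplg, which encodes the selectin ligand PSGL-1 and is high in microglia, fell by 3.57 ± 0.28 (adjusted p = 5.40e-09).

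The ITAM adaptors and kinases had 4 of 12 tested genes that rose and 3 that fell, with a median of 0.13. The largest changes were all upward, in the Src family kinase gene Fgr (4.53 ± 0.44, adjusted p = 9.39e-08), in Syk (2.39 ± 0.43, adjusted p = 0.000185) and in Fyn (1.52 ± 0.34, adjusted p = 0.00159). Of the 6 partners of ITIM signalling 2 rose, the adaptor gene Grb2 by 1.98 ± 0.42 (adjusted p = 0.000872) and Ptpn11, which encodes SHP-2, by 1.35 ± 0.38 (adjusted p = 0.00833), with a median of 0.43. The 13 other inhibitory receptors had 6 that rose and 2 that fell, Lair1 and Clec4a2, with a median of 0.55. Lilrb4a rose from 1.01 ± 1.15 to 669 ± 111 FPKM (log2 difference 8.51 ± 0.29, adjusted p = 1.66e-14). Cd300lf rose by 6.48 ± 0.31 (adjusted p = 1.90e-12) and Clec12a, a myeloid C-type lectin receptor gene, by 4.71 ± 0.42 (adjusted p = 2.52e-08).

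**Figure D5:**
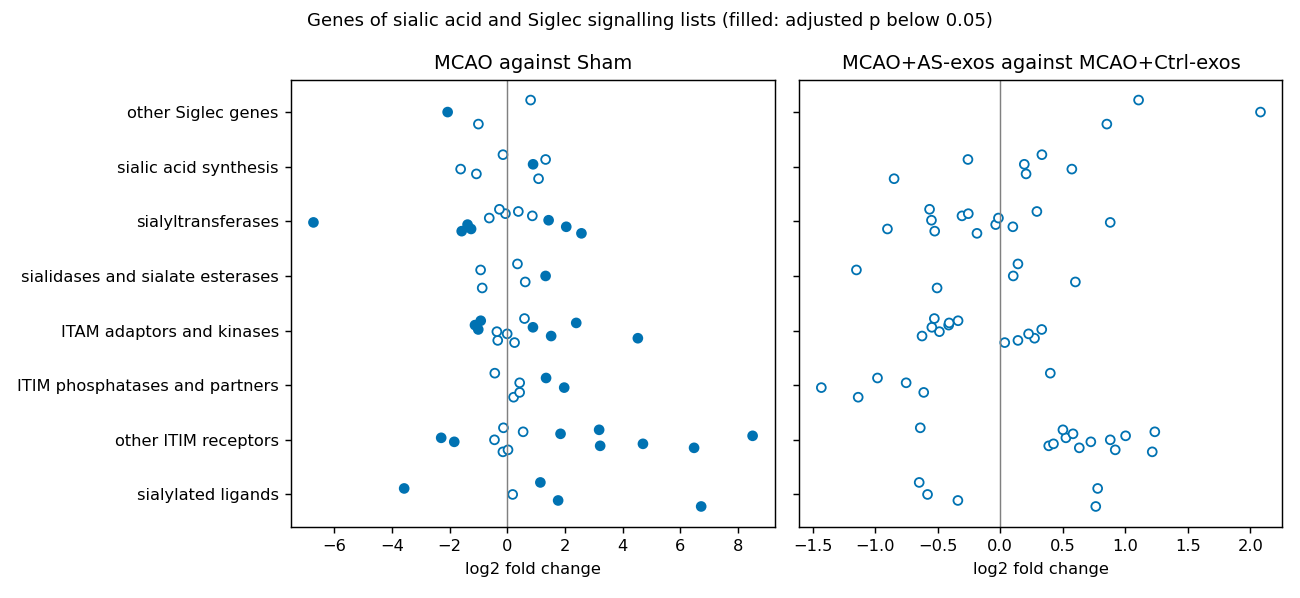
Log2 fold change (horizontal axes, which differ in range) of each of 62 tested genes in 8 lists of sialic acid and Siglec signalling genes, in MCAO against Sham (left) and MCAO+AS-exos against MCAO+Ctrl-exos (right); each point is a gene, filled where adjusted p is below 0.05 with all libraries. On the left 31 points are filled, with St3gal6 the lowest at -6.72 and Lilrb4a the highest at 8.51, and on the right 0 are filled.

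With all libraries, none of the 62 list genes passed by limma in MCAO+AS-exos against MCAO+Ctrl-exos, nor in MCAO+Ctrl-exos against MCAO. In those comparisons 2127 and 1181 of all tested genes had an unadjusted p below 0.05. Without AS-exos replicate 4 the first comparison had 6 list genes that rose (9.68%) and 7 that fell (11.3%), beside 3.52% higher and 8.44% lower of all tested genes. Those that rose were Siglecf, Cd24a and 4 of the 13 other inhibitory receptors, Lilrb4a, Cd300a, Fcgr2b and Cd200r1. Of the 6 partners of ITIM signalling 4 fell, Grb2, Cbl, Ptpn11 and Inpp5d, which encodes the phosphatase SHIP-1, and the others that fell were Neu3, Vav1 and Ptprc. Which library is left out thus sets this count, and Cd33 and Siglece lost their calls without other AS-exos libraries, as given above. With all libraries the medians in that comparison were 0.63 for the other inhibitory receptors and -0.87 for the partners of ITIM signalling, beside -0.08 for all tested genes. In MCAO+AS-exos against MCAO 1 list gene rose and 4 fell. Pirb, an ITIM receptor gene, rose by 0.86 ± 0.24 (adjusted p = 0.0411). Neu3, a plasma membrane sialidase gene, fell by 1.37 ± 0.40 (adjusted p = 0.0485), Ptpn11 by 1.35 ± 0.38 (adjusted p = 0.0434), Grb2 by 1.495 ± 0.42 (adjusted p = 0.0422) and the ubiquitin ligase gene Cbl by 1.22 ± 0.32 (adjusted p = 0.0371). Without AS-exos replicate 4, 7 list genes rose and 10 fell there, these 5 among them, beside 3.89% higher and 14.8% lower of all tested genes. That comparison called 666 genes, and 0 without AS-exos replicate 2 or replicate 3, 2 without replicate 1 and 2024 without replicate 4.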

How the data were processed

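Expression was measured by RNA sequencing of cDNA that was amplified, made into transposon-based libraries and circularized, per the labels' protocols. The deposited values were read as FPKM, made by the authors with HISAT2, Bowtie2, RSEM 1.3.1 and the GRCm39.p6 build, per the submitters' processing notes, which give no roles. The unit is not stated; it was inferred from library totals of 758283 to 983648, and TPM of a subset of genes is possible. The files hold no counts, so depth is unknown and no counting error is given; 8813 to 10003 genes reached 1 FPKM per library. Groups came from the sample titles.

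Values were taken as log2(FPKM + 1), which understates changes of low genes. The test took genes that reached 1 FPKM in 4 or more libraries and was made with limma 3.58.1 in R 4.3.3 (trend and robust), in 1 model of 4 group means over 16 libraries, two-sided, with Benjamini-Hochberg adjustment over all tested genes and a threshold of 0.05. The procedure was tested on simulated data. Errors are SE of the fit for log2 differences and SD of 4 libraries for FPKM.

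The members, the 8 lists and the marker lists were chosen with earlier results of these data known. Named genes are the members, per list the 3 largest changes past the threshold in MCAO against Sham and every gene past it among the occlusion groups, and the 3 genes nearest to each member, without predicted models; a few genes that fall under it or under the marker lists are left out here. Genes named beyond that rule (Siglecg, Mag, Tyrobp, Lair1, Clec4a2, the list genes named without AS-exos replicate 4 and the chromosome 7 neighbours) were chosen after their values were seen. Alternatives were quantile normalization, equal totals, no filter, a filter at 5 FPKM, 0.1 as pseudocount, no trend, the 8 compared libraries alone, a replicate block and each library left out; taking out the trends with length and GC was added after the data were seen, with GENCODE M21 lengths for 96.51% of genes.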

Additional observations from a re-analysis of the deposited data

Results flagged for a closer look

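Of 24 groups of 4 libraries (6 genes in 4 groups), 2 held a library far from the other 3, measured as its gap to the nearest over the range of the group; chance flags about 1 in 20 groups. Cd22 was at 9.87 FPKM in MCAO replicate 4, beside 2.49 to 2.93 FPKM in the other MCAO libraries. Siglec1 was at 0.01 FPKM in Sham replicate 3, the smallest value the table can show, beside 0 in the other Sham libraries.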

How the results depend on the processing

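Of 596 values recomputed for the 24 member results under 25 alternatives, 570 kept their direction and side of the threshold, 13 lost the call, 3 gained one and 10 reversed; the cause was not tested. The count for MCAO+Ctrl-exos against MCAO (8) was 5 with equal totals, 4 with no filter, 2 without trend, 3 with the 8 libraries alone, 5 with a replicate block, 2 with length and GC trends removed and 2 to 89 with single libraries left out. For MCAO+AS-exos against MCAO+Ctrl-exos (31) it was 88 with quantile normalization, 93 with a minimum of 5 FPKM, 16 without trend, 9 with the 8 libraries alone, 68 with the replicate block, 57 (17 higher and 40 lower, beside 17 and 14) with length and GC trends removed and 1 (without AS-exos replicate 2 or 3) to 1297 (without replicate 4) with single libraries left out. For MCAO+AS-exos against MCAO (666) it was 318 with quantile normalization, 31 with the 8 libraries alone, 346 with length and GC trends removed and 0 to 2024 with single libraries left out. The count of 4254 for MCAO against Sham stayed within 1.5 times, but quantile normalization moved the median log2 difference of all genes from 0.25 to -0.03 and changed the share of higher genes from 62.4% to 49.1%, and from 17.3% to 30.2% in MCAO+AS-exos against MCAO. In MCAO+Ctrl-exos against MCAO the split was 5 higher and 3 lower, and 2 and 3 with equal totals. Same-numbered libraries had residual correlations of -0.148 to 0.0923 over the 4 comparisons. No pairing by replicate number was seen there, though 4 pairs per comparison cannot exclude it.

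In MCAO against Sham, Cd33 was -1.03 and no longer past the threshold with length and GC trends removed, as was Cd22 at 0.92 with quantile normalization, with the 8 libraries alone, and at 1.19, 1.16 and 1.05 without Sham replicate 1, Sham replicate 2 or MCAO replicate 4. Siglece in MCAO+AS-exos against MCAO+Ctrl-exos had an adjusted p of 0.0516 with the 8 libraries alone, and in MCAO+AS-exos against MCAO it passed with quantile normalization (1.35, adjusted p = 0.0453). Over all alternatives, adjusted p in MCAO+AS-exos against MCAO+Ctrl-exos was 0.000635 to 0.130 for Cd33 and 0.00148 to 0.137 for Siglece. Siglec1 in MCAO+Ctrl-exos against MCAO reversed to 0.12 with quantile normalization and to 0.0289 with length and GC trends removed. With single libraries left out it ran from -0.328 to 0.201, above 0 without MCAO replicate 2, Ctrl-exos replicate 2 or Ctrl-exos replicate 3. Ptpn6 in MCAO against Sham ran from -0.325 to 0.0613 with single libraries left out, above 0 without MCAO replicate 4. In MCAO+AS-exos against MCAO+Ctrl-exos, Ptpn6 reversed to 0.0556 with equal totals and ran from -0.129 to 0.0691 with single libraries left out, above 0 without Ctrl-exos replicate 1, AS-exos replicate 1 or AS-exos replicate 4.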
